A study of Mus musculus with 3 samples.

Results

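The clustered histone genes encode the replication-dependent histones, and 9 of the 27088 genes of the deposited table carried a symbol that starts with Hist1h, Hist2h, Hist3h or Hist4h. All 9 symbols started with Hist1h. The 9 genes comprised 4 H2A genes (Hist1h2al, Hist1h2an, Hist1h2ao and Hist1h2ap), 3 H2B genes (Hist1h2bp, Hist1h2bq and Hist1h2br) and 2 H4 genes (Hist1h4m and Hist1h4n). Each had a summed count of at least 20 over the PBS and SJMHE1 libraries, so no gene with such a symbol was left out. The lowest was Hist1h2an, with a summed count of 21. The table names a further 57 clustered histone genes by newer symbols (such as H4c9), as their identifiers in the GENCODE M21 annotation show, and these served for comparison. No H1 and no H3 gene was among the 9.

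B cells were sorted from the spleens of female BALB/c mice labelled as 13 weeks old. In the PBS and SJMHE1 groups, mice were sensitized with 10 µg OVA and 2 mg Al(OH)3 on days 0, 7 and 14, and OVA (100 µg) was then given into the nose daily from day 21 to 27 and from day 29 to 35, a model of allergic rhinitis. On days 0, 14 and 28 they received PBS or 10 µg SJMHE1, a peptide derived from the worm Schistosoma japonicum, and all mice were killed on day 36. SJMHE1 was emulsified in incomplete Freund's adjuvant and PBS was not, so the peptide and this adjuvant cannot be told apart. RNA of 3 mice was mixed into 1 library per group. The normal Control group is not analysed here, because no column of values is named for it. With 1 pooled library per group there is no replicate check and no p-value, and the differences describe these libraries. The PBS library held 48267168 counts and the SJMHE1 library 51280237. All 14 genes of a B cell marker list were detected, among them Cd79a (a chain of the B cell receptor complex) at an FPKM of 835 after PBS and 835.2 after SJMHE1.

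Histones are the proteins around which DNA is wound. H2A, H2B, H3 and H4 form the core of the nucleosome, and H1 binds the linker DNA. Cells make the replication-dependent histones from many gene copies as DNA is replicated. Their mRNAs usually end in a conserved stem-loop, bound by the stem-loop binding protein Slbp, in place of a poly(A) tail. The libraries were made by removal of rRNA and random priming, which does not depend on a poly(A) tail.

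Of the 9 genes, 8 lay within 50.7 kb of chromosome 13 in GRCm38 (chr13:21786826-21837530), inside the major histone cluster. Hist1h2an and Hist1h2bp formed an H2A and H2B pair at one end. The order Hist1h2bq, Hist1h2ao, Hist1h4m was followed, about 20 kb on, by the mirrored order Hist1h4n, Hist1h2ap, Hist1h2br. The coding sequences of the mirrored genes were identical in GENCODE M21, with 0 of 312 bases differing between Hist1h4m and Hist1h4n, 0 of 393 between Hist1h2ao and Hist1h2ap, and 0 of 381 between Hist1h2bq and Hist1h2br. Hist1h2an differed from Hist1h2ao at 5 bases and Hist1h2bp from Hist1h2bq at 6 bases. The ninth gene, Hist1h2al, went against the name clustered. It lies far from the others at chr13:51202727-51203065 and is annotated as a processed pseudogene.

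**Figure D1:**
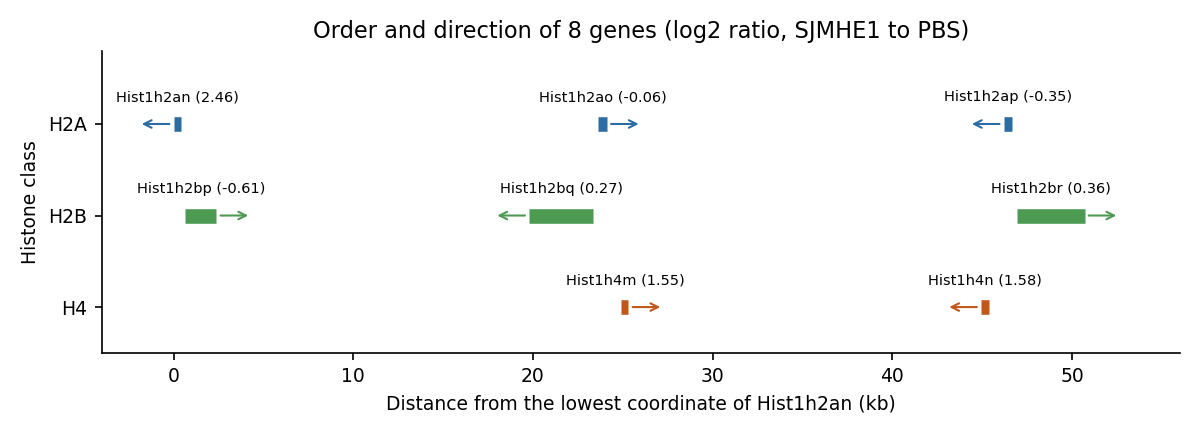
Order and direction of the 8 genes that lie in one stretch, by histone class, with the distance in kb from the lowest coordinate of Hist1h2an on the x axis. Boxes span each gene, arrows give its strand and the number in brackets is its log2 FPKM ratio, SJMHE1 to PBS. The H2B, H2A and H4 genes between 19.8 and 25.3 kb recur in mirrored order between 44.9 and 50.7 kb.

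The stem-loop is shown because it marks the replication-dependent class. It was searched on the transcript strand as GGNNCTTTTCAGNNCC, and 5 of the 9 genes held it in an annotated GENCODE M21 transcript, as did 29 of the 57 clustered histone genes under newer symbols (50.9%) and 51 of all 55450 genes (0.092%). Up to 7 flanking bases are given, and capitals mark the 16 letters searched. In GRCm38 the sequences lie at chr13:21812122-21812147 (plus strand), chr13:21831791-21831820 (minus), chr13:21810891-21810920 (plus), chr13:21833026-21833051 (minus) and chr13:21787916-21787945 (plus), in the order listed.
Hist1h4m: aactaaaGGCCCTTTTCAGGGCCatc
Hist1h4n: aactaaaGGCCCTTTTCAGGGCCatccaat
Hist1h2ao: aaaaaaaGGCTCTTTTCAGAGCCatccaca
Hist1h2ap: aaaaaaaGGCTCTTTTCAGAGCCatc
Hist1h2bp: acacaaaGGCTCTTTTCAGAGCCacccaca
All 5 lay in the 3′ untranslated region, 27 to 38 bases after the stop codon, and the 16 letters were the same in both H4 genes and the same in the H2A and H2B genes. The annotated transcript of Hist1h2an covers the coding sequence alone, and those of Hist1h2bq and Hist1h2br end at the stop codon or are spliced to exons farther downstream, so the absence of a match there says only that these letters are not in those transcripts.

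RefSeq promoter windows (GRCm38.p6, 250 bases before to 50 after the start) were found for 8 of the 9 genes, and 3 stretches are printed to show what the mirrored copies and the paired genes share. The first is the 110 bases before the start of Hist1h4m, at chr13:21811636-21811745 on the plus strand. The whole windows of Hist1h4m and Hist1h4n shared a run of 285 bases. The second is the 167 bases between the starts of Hist1h2bq and Hist1h2ao, at chr13:21810200-21810366, read toward Hist1h2bq on the minus strand. The whole windows of Hist1h2bq and its copy Hist1h2br were identical over 300 bases. The third is the 239 bases between the starts of Hist1h2an and Hist1h2bp, at chr13:21787249-21787487, read toward Hist1h2bp on the plus strand. Capitals mark TATAA on either strand, and likewise CCAAT and the letters ATTTGAAT.
Hist1h4m: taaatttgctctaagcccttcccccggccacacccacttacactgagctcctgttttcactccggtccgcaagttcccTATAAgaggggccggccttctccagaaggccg
Hist1h2ao to Hist1h2bq: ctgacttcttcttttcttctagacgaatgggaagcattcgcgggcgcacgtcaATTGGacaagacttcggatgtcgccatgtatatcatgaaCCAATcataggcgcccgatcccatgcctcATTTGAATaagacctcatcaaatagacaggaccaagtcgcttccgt
Hist1h2an to Hist1h2bp: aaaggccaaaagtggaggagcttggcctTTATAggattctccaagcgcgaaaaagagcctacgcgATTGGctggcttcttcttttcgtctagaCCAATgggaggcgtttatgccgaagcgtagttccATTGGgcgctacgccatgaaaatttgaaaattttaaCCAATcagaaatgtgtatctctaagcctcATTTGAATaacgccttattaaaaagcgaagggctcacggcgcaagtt
TATAA, the core of the TATA box, was in all 8 windows in 24.9% of the 32851 RefSeq windows and in 40 of 52 windows (76.9%) of the other clustered histone genes. It did not occur in the printed stretch between Hist1h2bq and Hist1h2ao, so its match in their windows lies beyond their starts. CCAAT was in 6 of the 8 windows, those of the H2A and H2B genes, in 37.4% of all windows and in 45 of those 52 (86.5%). ATTTGCAT, the octamer bound by Oct proteins and known from H2B promoters, was in 0 of the 8 windows, in 1.74% of all windows and in 12 of those 52 (23.1%). ATTTGAAT, which differs from it at 1 base and was chosen after the windows were read, was in the same 6 H2A and H2B windows, in 1.25% of all windows and in 8 of those 52 (15.4%). These 6 windows are not independent, since paired genes share the DNA between their starts and the mirrored pairs are copies.

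Compared with the PBS library, both H4 genes were about 3 times higher in the SJMHE1 library, while most of the H2A and H2B genes differed by less than their counting error. FPKM is the read count scaled to gene length and to library size. Levels can thus be compared between genes as far as the lengths used and the placement of reads shared between genes are right. Ratios are log2(SJMHE1 FPKM / PBS FPKM), with no pseudocount added. The 95% interval of a ratio comes from its counts by the exact Clopper-Pearson method and covers counting error only. A log2 ratio of 1 in either direction served as the threshold. Above it were 3 of the 9 genes (Hist1h2an, Hist1h4m and Hist1h4n), and 0 were below -1. Hist1h2an had 3 counts after PBS and 18 after SJMHE1. It reached the minimum of 20 counts only once those of the library where it is high were added, which favours its direction. Only the 2 H4 genes are therefore read as above the threshold. Of the 17769 genes with a summed count of at least 20 and an FPKM above 0 in both libraries, 5.08% were above 1 and 7.9% below -1. Low counts widen ratios, and of the 5790 genes whose summed count lay between 21 and 226, as in the 9 histone genes, 12.8% were above 1 and 19.4% below -1. The median log2 ratio was 0.27 for the 9 genes and -0.02 for all genes tested. The median of the 9 depends on which genes enter, with 1.55 over the 3 at an FPKM of at least 1 and 0.07 with each pair of copies counted as 1 gene. Ratios were split, with 5 histone genes above 0 and 4 below it. Of all genes tested, 45.8% were above 0 and 52.7% below it, and in the same count range 42.5% and 54.1%. The interval lay wholly above 0 for Hist1h4m and Hist1h4n, and for Hist1h2an with the same limit, beside 26.7% of all genes tested and 16.9% of those in the count range.

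Hist1h4n encodes histone H4 and was the most abundant of the 9 genes in the SJMHE1 library. It had 55 counts after PBS and 171 after SJMHE1, and its FPKM was 2.29 and 6.83. The log2 ratio was 1.58, with a counting interval from 1.11 to 2.02, which lay wholly past the threshold. Its copy Hist1h4m had 28 counts after PBS and 85 after SJMHE1, and its FPKM was 1.23 and 3.60. The log2 ratio was 1.55, with an interval from 0.89 to 2.19. For each gene, the counting intervals of the FPKM in the PBS and SJMHE1 libraries did not overlap. The share of all genes tested without such overlap was not computed, and 26.7% of them had a ratio interval wholly above 0. Of all genes tested, 2.34% had a higher ratio than Hist1h4n, and 6.13% did among genes in the same range of counts.

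**Figure D2:**
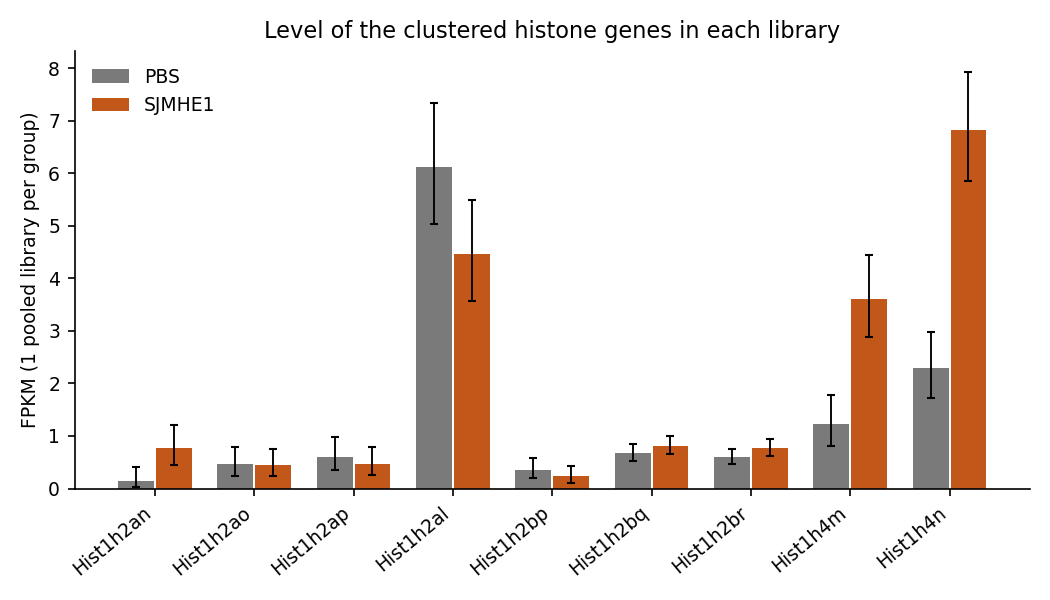
FPKM of the 9 genes in the PBS and SJMHE1 libraries. Bars are the value of the 1 pooled library per group and error bars are exact 95% Poisson intervals of the count, scaled to FPKM. Hist1h4m and Hist1h4n were higher in the SJMHE1 library, at 3.60 and 6.83 against 1.23 and 2.29, and only Hist1h2al reached a similar level.

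The H4 copies kept the same proportion. Hist1h4n had 1.96 times the counts of Hist1h4m after PBS and 2.01 times after SJMHE1. Both copies together had 83 and 256 counts, a 2.91-fold difference or 1.54 on the log2 scale (interval 1.18 to 1.92). Values of the single copies are uncertain, since a read that fits both could have been placed on either. Of the 50-base windows in their transcripts, 89.8% in Hist1h4m and 85.6% in Hist1h4n also occurred in another gene. Windows found in no other gene numbered 36 in Hist1h4m and 55 in Hist1h4n.

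The H2A genes did not move together. Hist1h2an had 3 counts after PBS and 18 after SJMHE1, and its FPKM was 0.14 and 0.77. Its log2 ratio of 2.46 was the highest of the 9 genes and the least certain, with an interval from 0.73 to 4.91. As a fold this was 5.50, with an interval from 1.66 to 30.0. Hist1h2ao had 13 counts in each library, with FPKM values of 0.46 and 0.44. Its copy Hist1h2ap had 16 and 14 counts, with FPKM values of 0.60 after PBS and 0.47 after SJMHE1. Their log2 ratios were -0.06 (interval -1.31 to 1.15) and -0.35 (interval -1.42 to 0.85), so no difference was detectable at this depth. Together these copies had 29 and 27 counts, or -0.19 on the log2 scale (interval -0.997 to 0.62), an interval that does not overlap that of the summed H4 copies.

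The pseudogene Hist1h2al was the most abundant of the 9 in the PBS library. Its FPKM was 6.11 after PBS, from 114 counts, and 4.46 after SJMHE1, from 88 counts. The log2 ratio was -0.45, with an interval from -0.87 to -0.04. It was the only one of the 9 whose interval lay below 0, beside 32.1% of all genes tested and 25.4% of those in the count range. Hist1h2al shared 67.6% of its windows with other genes, and 65.5% with H2ac18 (Hist2h2aa1), an H2A gene of the Hist2 cluster whose ratio was -0.24 (interval -0.54 to 0.06).

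None of the H2B genes was past the threshold, and each had an interval that included 0. Hist1h2bq had 75 counts after PBS and 95 after SJMHE1, and its FPKM was 0.67 and 0.81. Hist1h2br had 73 and 100 counts, with FPKM values of 0.60 after PBS and 0.77 after SJMHE1. The log2 ratios were 0.27 (interval -0.19 to 0.72) and 0.36 (interval -0.08 to 0.83). The copies had nearly equal counts in both libraries, and 97.3% of the windows of Hist1h2bq occurred in Hist1h2br. Both together had 148 and 195 counts, or 0.32 on the log2 scale, and the lower end of the interval was at 9.943e-05, next to 0. Hist1h2bp had 15 counts after PBS and 10 after SJMHE1, and its FPKM was 0.35 and 0.23. Its log2 ratio of -0.61 had an interval from -1.98 to 0.58, so the direction is not resolved.

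**Figure D3:**
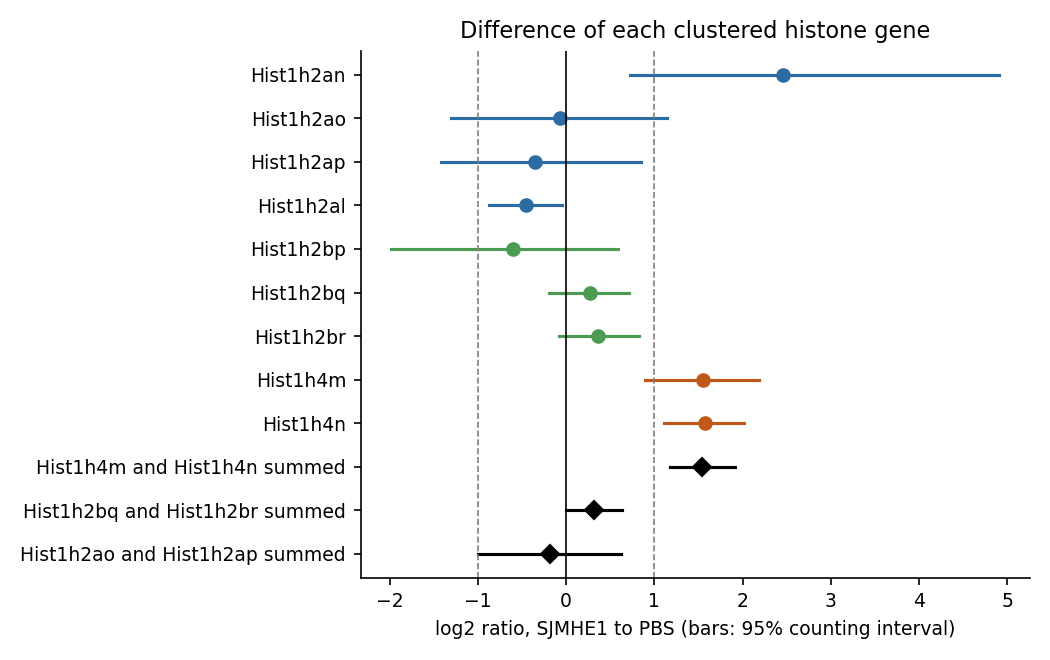
log2 FPKM ratio of each of the 9 genes, SJMHE1 to PBS, with the 95% counting interval as a bar, and below them the ratio of the summed counts of each pair of copies (diamonds). Blue marks H2A, green H2B and orange H4, and dashed lines mark a ratio of 1 in either direction. The summed H4 copies, at 1.54, lie wholly past the threshold, whereas the summed H2B and H2A copies, at 0.32 and -0.19, do not reach it.

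By level, the order in the PBS library was Hist1h2al, Hist1h4n, Hist1h4m, Hist1h2bq, then Hist1h2br and Hist1h2ap at the same FPKM of 0.60, Hist1h2ao, Hist1h2bp and Hist1h2an. Only Hist1h2al and Hist1h4n, the first in that order, were neighbours whose counting intervals did not overlap. In the SJMHE1 library the order was Hist1h4n, Hist1h2al, Hist1h4m, Hist1h2bq, then Hist1h2br and Hist1h2an at the same FPKM of 0.77, Hist1h2ap, Hist1h2ao and Hist1h2bp. There, Hist1h4n lay above Hist1h2al, and Hist1h4m above Hist1h2bq, without overlap of the intervals, and the other neighbours overlapped. These intervals cover neither the length used for scaling nor the placement of shared reads. All 9 genes together had 392 counts after PBS and 594 after SJMHE1. Without the H4 genes they had 309 and 338, or 0.05 on the log2 scale (interval -0.18 to 0.27). The pseudogene Hist1h2al held 114 and 88 of these.

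Among the clustered histone genes under newer symbols, the H4 genes also held most of the ratios above 1. Of these 57 genes, 46 passed the filter on low values, and 11 were above 1 and 2 below -1. Of the 10 H4 genes among them, 7 were above 1 and 0 below -1, with a median of 1.12. They included H4c9, the most abundant, with 296 counts after PBS, 717 after SJMHE1 and a ratio of 1.20, and H4c12 with 16 and 53 counts and a ratio of 1.72. The other 3 were H4c8 at 0.53, H4f16 at 0 and H4c2 at -0.80. Summed over these 10 genes, the counts gave 1.06 on the log2 scale (interval 0.92 to 1.21). The medians of the other classes were 0.65 for 5 H1 genes, 0.63 for 10 H2A genes, 0.46 for 11 H2B genes and 0.01 for 10 H3 genes, and of these 36 genes 4 were above 1. Their summed counts were also higher after SJMHE1 in each class, at 0.67 (interval 0.63 to 0.70) for H1, 0.26 (0.13 to 0.39) for H2A, 0.37 (0.28 to 0.47) for H2B and 0.36 (0.13 to 0.59) for H3 on the log2 scale. Single genes weighed on these sums. H1f2, at 0.65, held 12474 of the 13013 H1 counts after PBS and 20758 of 21859 after SJMHE1. Of the 5 H1 genes, 1 was below 0, namely H1f5 at -0.82. H2bc8, at 0.50, held 692 of the 1696 H2B counts after PBS and 1037 of 2328 after SJMHE1. H4c9 likewise held 296 of the 582 H4 counts and 717 of 1288. For the 7 H2A and H2B genes with a Hist symbol, the summed counts gave 0.05. They include the pseudogene Hist1h2al, which held 114 of their 309 counts after PBS and 88 of 338 after SJMHE1. Its own ratio was -0.45, and the value without it was not computed. Over all 12 clustered H4 genes, Hist1h4m and Hist1h4n included, the counts were 665 and 1544, or 1.13 on the log2 scale (interval 1.001 to 1.27). H4c9 held 34.3% of the windows of Hist1h4m, so the H4 genes are not separate measurements. Of the genes above 1, H2ac13 (5 and 27 counts), H1f1 (9 and 19), H4c1, H4c3, H4c11 and H4c12 reached the minimum summed count only once the SJMHE1 counts were added. The 2 genes below -1, H2bc11 and H2bc7, reached it only through the PBS library. In each case this favours the direction seen. Without these genes, those above 1 were H4c4, H4c9 and H4c14 of H4, H1f3 of H1 and H2ac7 of H2A. The difference between classes was not tested, as there are no replicates.

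**Figure D4:**
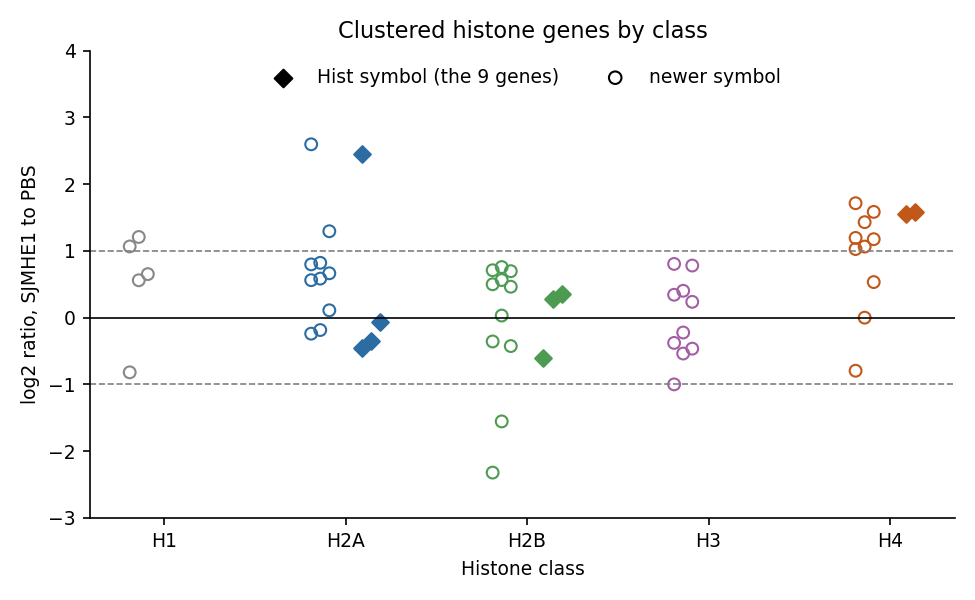
log2 FPKM ratio, SJMHE1 to PBS, of the 9 genes (filled diamonds) and of the 46 clustered histone genes under newer symbols that passed the filter on low values (open circles), by histone class. Dashed lines mark a ratio of 1 in either direction. Hist1h4m and Hist1h4n, at 1.55 and 1.58, lie among the H4 genes, of which 9 of 12 were above 1. Of these 9, H4c1, H4c3, H4c11 and H4c12 passed the filter only once the SJMHE1 counts were added, which favours their direction.

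Within H2A, H2ac13 stood next to Hist1h2an, with 5 counts after PBS, 27 after SJMHE1 and a ratio of 2.60. Like Hist1h2an, H2ac13 reached the minimum summed count only once the counts of the library where it is high were added, which favours its direction. It is therefore not read as above the threshold. H2ac13 held 70.9% of the windows of Hist1h2an. Within H2B, no gene was above 1, and the lowest was H2bc11, with 30 and 7 counts and a ratio of -2.32. H2bc11 reached the minimum summed count only through the PBS library, so the same limit applies to its direction.

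No list of other genes around histone production had a median log2 ratio near that of the H4 genes. Of 27 genes for histone transcription and mRNA processing (Slbp and the U7 snRNP among them), 0 were past the threshold, and the median log2 ratio was 0.07. Their ratios ran from -0.51 to 0.69, with 17 above 0 and 10 below it, beside 45.8% and 52.7% of all genes tested. The interval lay wholly above 0 for 13 and wholly below 0 for 4, beside 26.7% and 32.1% of all genes tested. Slbp had an FPKM of 11.8 after PBS and 12.3 after SJMHE1, a ratio of 0.07. Npat, which activates transcription of the clustered histone genes, had a ratio of 0.20, and the most abundant of the list, Srrt and Snrpb, had ratios of 0.12 and -0.13. Of 17 histone chaperone genes, 0 were past it, with a median of -0.05, and Npm1 and Nap1l1, the most abundant, were at -0.09 and -0.27. Of 37 genes of DNA replication and S phase, 0 were above 1 and 1 was below -1, namely Gins2, a subunit of the replicative helicase complex, at -1.14. Their median was -0.20, and 30 of them were below 0, beside 52.7% of all genes tested. Pcna (the sliding clamp of DNA polymerase) at -0.29 and Pold1 (a DNA polymerase subunit) at -0.01 were among these 30. Of 20 genes of G2 and mitosis, 0 were past the threshold, 18 were below 0 (beside the same 52.7%) and the median was -0.46. Mki67 and Cdc20, the most abundant of them, were at -0.43 and -0.82. Among 12 non-clustered histone genes, which mostly encode histone variants, H3f3c was above 1, at 1.37, and H1f10 below -1, at -2.87, and the median was -0.31. H3f3c is annotated as a processed pseudogene. H3f3b and H3f3a, the most abundant of that list, had ratios of 0.14 and -0.06.

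Markers of other cells also differed between the libraries. For scale, 5.08% of all genes tested were above 1, 7.9% below -1, 45.8% above 0 and 52.7% below 0. The summed FPKM of the T cell list was 95.9 after PBS and 42.8 after SJMHE1, with 14 of 15 genes below -1. The NK cell list had 18.6 and 7.5, with 7 of 9 genes below -1. The erythroid list had 188.9 and 252.9, with 11 of 11 tested genes above 0, and the red pulp macrophage list had 24.0 and 29.1, with 3 of 11 genes above 1. The germinal centre B cell list had 49.4 and 33.5, with 4 of 9 tested genes below -1, and the dendritic cell list had 23.6 and 17.6, with 2 of 8 below -1. The B cell list had 3361 and 3496, with 0 of 14 past the threshold. The plasma cell list had 878.5 and 810.4, with 1 of 10 below -1, and the neutrophil list 445.8 and 526.3, with 0 of 9 past the threshold. No gene of these lists was at 0 in both libraries. Their part in the histone differences was not tested. In such mixed RNA, more cells of a type and more RNA per cell cannot be told apart.

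**Figure D5:**
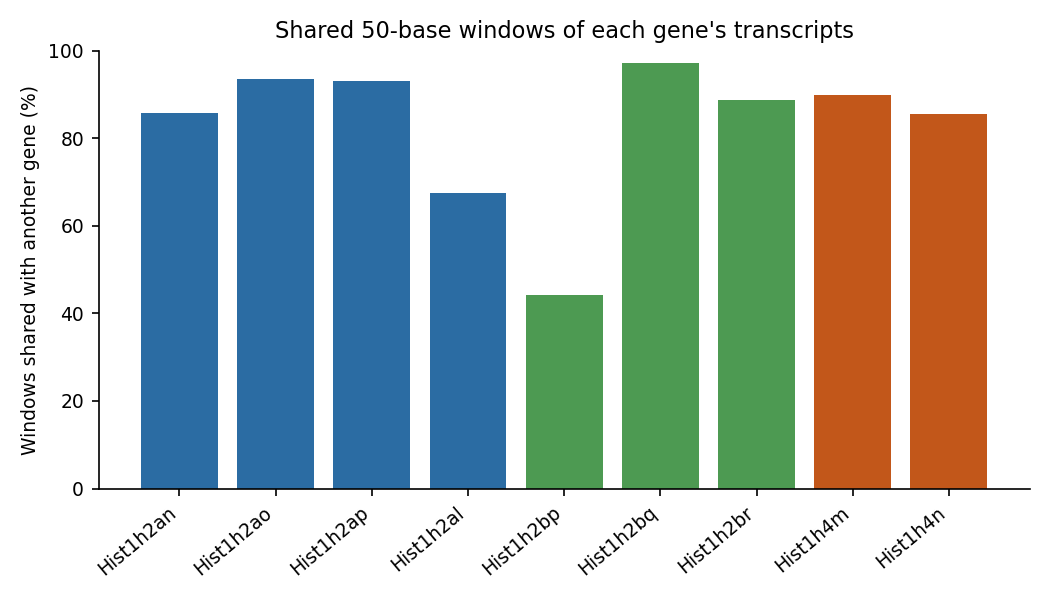
Share of the 50-base windows in the GENCODE M21 transcripts of each of the 9 genes that also occur in a transcript of another gene, in percent, with blue for H2A, green for H2B and orange for H4. The share lies between 44.1% for Hist1h2bp and 97.3% for Hist1h2bq, so most 50-base stretches of most of these genes have more than 1 possible origin. The share for longer reads was not computed.

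Other annotation also touches the values. An annotated miRNA gene overlaps Hist1h2al, Hist1h2an, Hist1h2ao and Hist1h2ap, each on the opposite strand, and whether the counting used strand is not given in the sources used here. None overlaps Hist1h4m or Hist1h4n.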

How the data were processed

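RNA from the sorted spleen B cells of 3 mice per group was mixed into 1 library. The submitters' processing notes name bcl2fastq 2.0, HISAT2, StringTie, DESeq2, limma and the build mm10, without roles. The treatment of reads with several origins and the use of strand are not given in the sources used here. The authors deposited whole-number counts per gene, not normalized, and FPKM values scaled by gene length and library size and rounded to 2 decimals. The 2 value columns named for no sample were not used, so comparisons with the Control library were not made and the minimum of 20 counts was summed over 2 libraries. All 9 genes matched GENCODE M21 by identifier, start, end and strand. Of the 27088 identifiers in the table, 27025 were found there.

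The log2 FPKM ratio was taken without a pseudocount, with exact Clopper-Pearson intervals at 95% from the counts. No count model could be fitted with 1 library per group. Calculations were tested on simulated data. The members and gene lists were chosen with earlier results of these data known. All 9 genes are named, and of the lists around histone production the genes past a log2 ratio of 1 and the 2 with the highest mean FPKM. Marker lists are given as sums, and 1 gene of the B cell list is not reported here. Cd79a, Slbp, Npat and the single genes under newer symbols were chosen after their values were seen. The tools were scipy 1.17.1, pandas 2.3.3, numpy 2.4.6 and matplotlib 3.10.9 under Python 3.11.15, and edgeR 4.0.16 (TMM factors alone) under R 4.3.3.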

Additional observations from a re-analysis of the deposited data

How the results depend on the processing

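No paired analysis was possible because there is a single library for each group. The alternatives were pseudocounts of 0.1 and 1, counts scaled by their sum, with TMM factors or without the 50 most abundant genes, centring on the median, no filter, a summed count of at least 100, a minimum FPKM of 1 in either library, protein-coding genes alone and a threshold of 0.5. The alternatives for the Control library were not run. Of 165 values recomputed, 158 stayed within a set range, 7 moved by more and 0 reversed. The range was the counting interval for the ratio of a gene and 1.5 times for a number of genes. For a median it was the median lower and upper ends of its genes' intervals, which is not a counting error of the median. A number of genes could not reverse, so the 0 covers ratios and medians alone. Some of the 158 could not move. No filter, a summed count of at least 100, a minimum FPKM of 1 and protein-coding genes alone change only which genes are kept. The ratio of each kept gene is then the same by construction. All genes with a Hist symbol already passed the filter, so removing it changed none of their values. The 158 thus overstate how stable the results were. Under a pseudocount of 1, the ratio of Hist1h2an was 0.63, since the added value pulls low genes toward 0. The threshold of 0.5 put 1 gene below it (Hist1h2bp). Of the genes kept with an FPKM of at least 1, 2 were above 0 and 1 below it, with a median of 1.55 in place of 0.27, and with a summed count of at least 100 there was 1 below 0, since fewer genes are tested. Counting each pair of copies as 1 gene, chosen after seeing the data, left 3 above 0 and a median of 0.07. Depth limits Hist1h2an, Hist1h2ao, Hist1h2ap and Hist1h2bp, with summed counts of 30 or fewer. Over all genes tested, 903 were above and 1403 below the threshold, against 482 and 735 with a pseudocount of 0.1, 92 and 125 with one of 1, 1367 and 2018 without a filter, 269 and 453 at 100 counts, 263 and 395 at an FPKM of 1, 399 and 800 among protein-coding genes, and 2139 and 3037 at a threshold of 0.5.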
